A study of Mus musculus with 6 samples.

Results

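Day 5 infiltrating leukocytes are the cells with white blood cell transcripts in the single-cell library made 5 days after partial sciatic nerve ligation (PSNL). Cells were barcodes with at least 1000 UMIs, each UMI standing for 1 captured RNA molecule, and with under 10% of their UMIs from mitochondrial genes. A cell was taken as a leukocyte when Ptprc, Tyrobp, Fcer1g and Laptm5 together had at least 3 UMIs and Pdgfra, Sox10, Cdh5 and Notch3 had none. This gave 83 of the 1482 day 5 cells, a share of 5.60% (95% exact interval 4.49 to 6.90, counting error only). The 5 libraries analysed, of 6 in the series, held 11524 cells together. The nerves had been sorted against CD45, the surface protein that Ptprc encodes, so this is a share of sorted cells and not of the nerve.

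Neutrophils are short-lived granulocytes that leave the blood within hours of injury. They follow gradients of chemokines, complement fragments and formylated peptides, carry preformed granules of proteases and antimicrobial proteins, and kill microbes with an NADPH oxidase. In a cut or crushed peripheral nerve they precede the monocyte-derived macrophages that clear myelin. CD45 (Ptprc) is on all nucleated white cells, while Tyrobp and Fcer1g encode the adaptors that pass signals from activating receptors of myeloid and natural killer cells.

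The study asked which stromal cells of the mouse sciatic nerve carry pain-related mediators after PSNL, a ligation of part of the nerve. The mice were adult C57BL/6J of both sexes, at least 8 weeks old, and each library pooled 4 nerves, 50% from males. Live nucleated events (DRAQ5+ DAPI-) negative for myelin, CD45 and the red cell marker Ter119 were sorted and sequenced with 10X Chromium 3' version 3 chemistry. The groups were sham and PSNL at month 2, with 2 libraries each, and PSNL at day 5, with 1 library of batch 2; the sham day 5 library was not analysed here. The sample title gives 5 days for this library, its protocol gives 4 to 6 days, and the text on the series gives 1 week. With 1 library at day 5 there was no replicate and no test, and the pooled nerves were not separable. Values below are CPM, the summed counts of a set of cells scaled to a total of 1000000 UMIs. They carry 95% intervals that cover counting error only. As UMIs come from the 3' ends of transcripts, levels were not divided by gene length.

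The 5 libraries analysed held between 4099617 and 19557393 UMIs and between 544 and 3777 cells. The median day 5 cell had 10946 UMIs, against 2486 to 5081 at month 2. Applied to month 2, the same selection found 1 cell of 544 after sham surgery and 2 of 2327 after PSNL in batch 1. In batch 2 it found 0 of 3394 after sham surgery and 1 of 3777 after PSNL. The count of 0 allows a share of up to 0.0884%. None of the 83 barcodes was shared with a cell of another library, and libraries shared at most 3 cell barcodes with each other.

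The 83 leukocytes had 1198 to 4811 UMIs each (median 2244) and 565 to 1529 genes (median 900), while the 1399 other day 5 cells had a median of 11514 UMIs and 3755 genes. Their mitochondrial share was 0.423 to 8.72% (median 1.57%). The leukocytes therefore held 195890 of the library's cell UMIs, 1.10% of the total, and 1 UMI in them was worth 5.10 CPM. A gene at 0 in the leukocytes could still have stood at up to 15.3 CPM, the level of 3 counts.

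The 4 choosing genes summed to 7 to 60 UMIs per leukocyte (median 25), so no selected cell lay at 3 to 6 UMIs. Tyrobp was found in all 83 cells, Fcer1g in 82, Ptprc in 80 and Laptm5, a lysosomal membrane protein of blood cells, in 54. On the other side of the threshold, 82 of the 1399 other cells had 1 such UMI, 7 had 2, and 12 had at least 3 but also carried an excluded gene. Of those 12, 9 carried Cdh5, a junction protein of endothelial cells. These values chose the cells and were not tested.

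**Figure D1:**
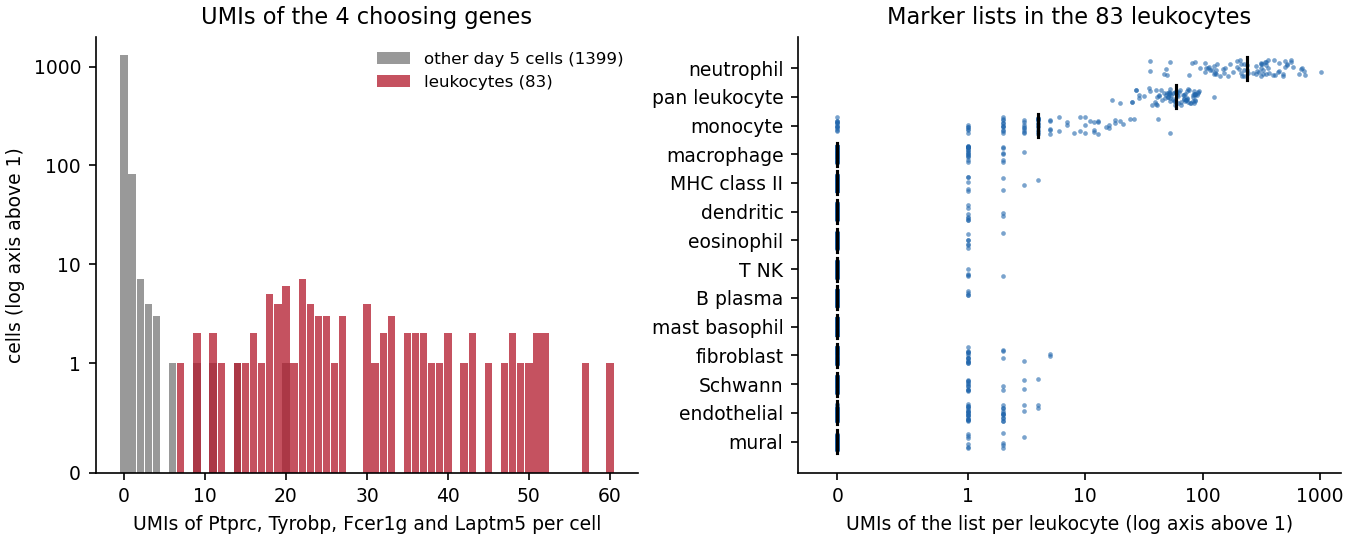
Left, number of day 5 cells (vertical axis, logarithmic above 1) by their UMIs of Ptprc, Tyrobp, Fcer1g and Laptm5, for the 83 leukocytes in red and the 1399 other cells in grey. Right, UMIs of each marker list (horizontal axis, logarithmic above 1) in each leukocyte, with 1 point per cell and a bar at the median. The neutrophil list lies between 36 and 1013 UMIs in every cell, and the macrophage list never exceeds 3.

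Markers of the separate white cell types showed what these leukocytes were. The neutrophil list had 36 to 1013 UMIs in every one of the 83 cells (median 239, a median of 11.0% of the cell's RNA). The macrophage list had 0 to 3 UMIs and was at 0 in 58 cells. Of its 16 genes, 13 were at 0 UMIs over all 83 cells, C1qa, C1qb, C1qc, Mrc1, Cd163, Folr2, Trem2, Cx3cr1 and Fcgr1 among them. The other 3, Adgre1, Csf1r and Cd68, were at least 4-fold higher than in the other day 5 cells. For 2 of these 3 the filter on low values, described below, had fixed that call. The list summed to 33 UMIs, 168 CPM against 44.8 in the other cells. The T and natural killer cell list never exceeded 2 UMIs, the B cell list 1 and the dendritic and eosinophil lists 2, and the mast cell and basophil list was at 0 throughout. MHC class II genes summed to 16 UMIs in 9 cells. The label of leukocytes thus covered a single kind of cell by these markers, neutrophil-like cells, and no macrophage-like or lymphoid cell was among the 83. With 0 of 83 cells, a share of up to 3.61% of such cells among the leukocytes would go undetected.

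Stromal markers were scarce in the same cells. The fibroblast list had 0 to 5 UMIs per cell, the Schwann cell list 0 to 4, the endothelial list 0 to 4 and the mural list 0 to 3, each with a median of 0. Scrublet, which scores barcodes for their likeness to simulated doublets, called 10 of the 1482 cells and none of the 83. Pecam1, an adhesion molecule of endothelial and white blood cells, accounted for 54 of the 57 endothelial UMIs and stood at 276 CPM, while Cldn5, Egfl7, Kdr and Emcn were at 0 UMIs. In cells with Cdh5, Pecam1 stood at 1165 CPM, and in barcodes of 10 to 100 UMIs, which hold mainly free RNA, at 4878 CPM.

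Over all genes, 9135 had a mean of at least 10 CPM over the leukocytes and the other day 5 cells and were compared. Of these, 1095 were at least 4-fold higher in the leukocytes, which is 12.0% of those compared, and 1662 were at least 4-fold lower, which is 18.2%. The median log2 difference over all compared genes was -0.70. With every cell thinned to 1000 UMIs the balance turned, with 1305 genes higher, 685 lower and a median of 0.20 over the same genes. The cells were chosen by their expression, so these are descriptions of the profile. The filter took part in the calls. A gene at no more than 4 CPM in the other cells passed only through the leukocytes and was then bound to be called higher, and 485 of the 1095 were of this kind. The 7174 genes with at least 20 CPM in the other cells passed whatever their leukocyte level, and of these 261 (3.64%) were higher and 1662 (23.2%) lower. The list counts below are given over such genes where there were any, to be read beside these shares. A stricter comparison set each gene against the highest of the cells with Pdgfra only (225 cells, a fibroblast gene), Sox10 only (421, Schwann cells), Cdh5 only (416, endothelial cells) and Notch3 only (144, mural cells). Then 811 of 10539 genes, 7.70%, were at least 4-fold higher in the leukocytes, and 810 of these were among the 1095.

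S100a9 and S100a8, the subunits of calprotectin, a calcium- and zinc-binding protein that fills the neutrophil cytosol, led the profile. Together they made up 10.1% of all leukocyte UMIs. S100a9 stood at 56690 CPM (95% interval 55640 to 57754) against 34.9 in the other cells. S100a8 stood at 43882 CPM (42959 to 44819) against 30.3. Most of what the other cells held came from 2 barcodes with 523 of their 534 S100a8 UMIs and 598 of their 614 S100a9 UMIs. In the remaining 1397 cells the levels were 0.626 CPM for S100a8 and 0.910 CPM for S100a9. Thinned to 1000 UMIs per cell, 98.8% of leukocytes and 0.214% of other cells had a UMI of S100a8.

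The genes lie next to each other on chromosome 3 of GRCm38, S100a8 at chr3:90668978-90670035 on the plus strand and S100a9 at chr3:90692632-90695721 on the minus strand. Their levels went together from cell to cell, with a Spearman correlation of 0.906 over 83 cells of 1 library that share its depth and chemistry. S100a8 ranged from 0 to 425 UMIs per cell (median 78) and S100a9 from 0 to 521 (median 107), and 1 cell had no S100a8 and another no S100a9.

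The 250 bases before the RefSeq start of these genes are shown because S100a8, S100a9 and other leading neutrophil genes were searched for the letters of known myeloid motifs. Lower case is unmatched sequence, and capitals mark a match on either strand to GAGGAAGT (PU.1), TTGCNNAA (C/EBP) or GGGNNTTTC (NF-kB), in GRCm38.p6.
S100a8, chr3:90668821-90669070, plus strand: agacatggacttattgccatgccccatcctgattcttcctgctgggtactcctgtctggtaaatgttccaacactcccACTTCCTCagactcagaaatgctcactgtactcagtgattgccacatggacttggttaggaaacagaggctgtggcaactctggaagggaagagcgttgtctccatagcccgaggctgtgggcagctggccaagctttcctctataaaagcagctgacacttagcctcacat
S100a9, chr3:90695722-90695971, minus strand: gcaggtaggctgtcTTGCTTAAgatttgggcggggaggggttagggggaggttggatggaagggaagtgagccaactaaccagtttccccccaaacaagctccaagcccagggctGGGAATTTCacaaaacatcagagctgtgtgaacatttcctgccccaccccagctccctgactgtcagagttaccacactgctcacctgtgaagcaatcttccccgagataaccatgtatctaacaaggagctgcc
Cxcl2, chr5:90903649-90903898, plus strand: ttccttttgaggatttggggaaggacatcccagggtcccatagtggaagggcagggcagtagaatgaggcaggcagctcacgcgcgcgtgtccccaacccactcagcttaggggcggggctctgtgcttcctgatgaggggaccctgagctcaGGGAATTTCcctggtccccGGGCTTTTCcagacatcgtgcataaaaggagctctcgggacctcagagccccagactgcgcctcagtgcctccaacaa
Clec4e, chr6:123289872-123290121, minus strand: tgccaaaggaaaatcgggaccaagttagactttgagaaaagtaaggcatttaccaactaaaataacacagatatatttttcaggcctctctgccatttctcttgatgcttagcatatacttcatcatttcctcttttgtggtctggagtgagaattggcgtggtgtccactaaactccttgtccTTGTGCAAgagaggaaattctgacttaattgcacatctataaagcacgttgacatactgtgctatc
The S100a8 window held 1 PU.1 match, 172 bases before the start, and the S100a9 window 1 C/EBP match, 236 bases before it, and 1 NF-kB match at 135 bases. The Cxcl2 window held 2 NF-kB matches, 97 and 78 bases before the start, and the Clec4e window 1 C/EBP match at 66 bases. The windows of Il1b, Csf3r, Trem1, Il1r2, Nlrp3 and Clec4d held no match to these letters. RefSeq promoters were found for 18 of the 20 genes of the neutrophil list. Of the 18, 7 held the C/EBP letters (38.9%), 3 the PU.1 letters (16.7%) and 2 the NF-kB letters (11.1%), against 10.8%, 2.79% and 4.35% of the 27025 genes with a promoter in the table. The median GC content was 52.8% in the list and 52.4% in the table. Matches describe the letters of the window and not bound sites. Promoters were matched for only 65.6% of the genes called higher, so no share over those is given.

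Of the 20 genes of the neutrophil list, 16 passed the filter on low values, 9 of them with a call that passing had fixed, so their count as higher is no result. Camp, Ngp, Ltf and Cd177 did not pass, with 0, 0, 2 and 1 UMIs. Hdc, which makes histamine, stood at 3094 CPM against 4.77, and Retnlg, a resistin-like protein of granulocytes, at 3328 CPM against 1.31. G0s2, an inhibitor of the lipase ATGL, stood at 4645 CPM and was found in 74 cells. Ly6g, the antigen used to sort mouse neutrophils, had 8 UMIs in 6 cells, 40.8 CPM against 0.114.

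Granule genes differed by the class of granule, in lists drawn up after the cells had been seen. The azurophil genes Mpo, Elane, Prtn3 and Ctsg, which are transcribed in marrow precursors, had 0 UMIs in the 83 cells. Of the specific granule genes Camp, Ngp, Ltf, Lcn2 and Chil3, Lcn2, an iron-siderophore binder, was at 669 CPM (131 UMIs in 37 cells) and the rest had at most 2 UMIs. The gelatinase granule genes were higher, with Mmp9 at 904 CPM in 70 cells and Mmp8, a collagenase also stored in specific granules, at 250 CPM in 28 cells.

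**Figure D2:**
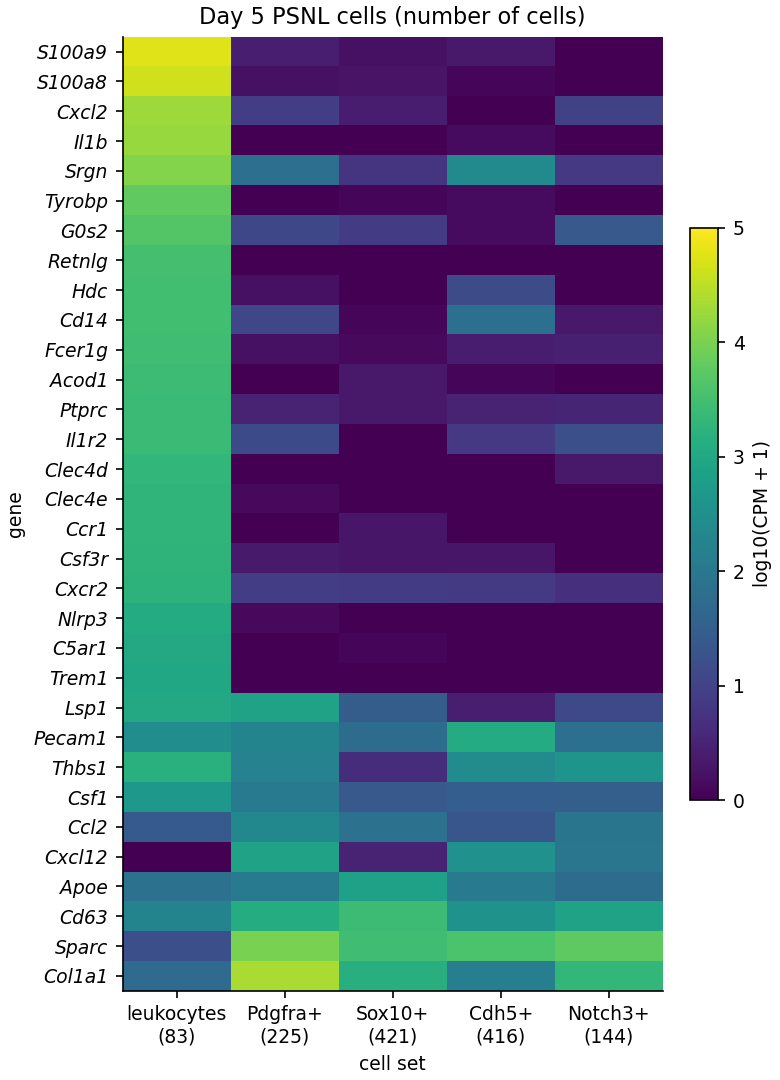
Summed level of 32 genes (rows, log10 of CPM + 1) in the leukocytes and in day 5 cells carrying only Pdgfra, Sox10, Cdh5 or Notch3 (columns, with the number of cells). The upper rows are highest in the leukocytes, with S100a9 at 56690 CPM. Lsp1 and Pecam1 are shared with the Pdgfra and Cdh5 cells, and the lowest rows, Sparc and Col1a1, are high outside the leukocytes.

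Inflammatory ligands formed the next most abundant group. Il1b, the secreted cytokine interleukin-1 beta, was found in all 83 leukocytes at 2 to 107 UMIs per cell (median 34). Its level was 16683 CPM (16116 to 17265) against 2.22 in the other cells. The 2 barcodes rich in S100a8 held 35 of the other cells' 39 Il1b UMIs, and in the remaining 1397 cells it stood at 0.228 CPM. Il1b lies on the minus strand at chr2:129364570-129371139, where the antisense gene Il1bos overlaps it, and whether the counting used strand is not given in the sources used here. The same holds for G0s2 and Lamb3 and for Cebpb and Tmem189. Cxcl2, a neutrophil-attracting chemokine, was found in 78 cells at up to 167 UMIs and stood at 18245 CPM against 6.53. Of its 115 UMIs in the other cells, 52 came from the same 2 barcodes, and the remaining cells stood at 3.59 CPM.

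Of the 22 cytokine and chemokine ligands listed, 17 were compared. Passing the filter had fixed the call as higher for 9 of these, Il1b included, and of the 6 that passed by the other cells alone, none was higher and 2, Ccl2 and Ccl7, were lower. With thinned cells none of the list was lower. The floor of 3 counts then lies at a higher CPM, so this cannot weaken the calls of Ccl2 and Ccl7. Ccl6, a monocyte and macrophage attractant, stood at 1562 CPM, and Osm, a cytokine of the interleukin-6 family, at 454 CPM in 34 cells. Il1rn, the antagonist of the interleukin-1 receptor, stood at 934 CPM in 51 cells. Il1a had 5 UMIs. Ccl4 had 186 UMIs in the leukocytes and 0 in the other cells, where a floor of 3 counts makes it at least 5571-fold higher. For Tnf, with 47 and 0 UMIs, the bound was at least 1408-fold. In the 15 genes with the largest differences at 100 CPM or more, ranked with counts under 3 set to 3, Il1b and Ccl4 were joined by receptors described next and by Hcar2, a receptor for butyrate and niacin (873 CPM), Mcemp1 (812 CPM), Slfn1 (633 CPM) and the tetraspanin Cd53 (1486 CPM).

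Mediators that the study followed in stromal cells were not all alike in the leukocytes, and not all of them could be told apart from the other cells. Mmp9, given above, was high at 904 CPM, while Spp1, osteopontin, had 5 UMIs, 25.5 CPM against 342. Il6, Lif and Clcf1 had 0 UMIs there and 30.3, 11.2 and 33.0 CPM in the other cells. As 3 counts are worth 15.3 CPM, Il6 and Clcf1 were short of 4-fold. For Lif the other cells' level was under those 15.3 CPM, and it was not compared. Ccl2, a monocyte attractant, had 5 UMIs in 2 leukocytes, 25.5 CPM against 108 in the other cells, a level 4.22-fold lower (95% interval 1.80 to 13). With thinned cells, where the floor of 3 counts lies at a higher CPM, its log2 difference was -1.89, short of 4-fold. Scaled without mitochondrial, ribosomal protein and the 20 most abundant genes, its log2 difference was -1.90. In cells with Pdgfra it stood at 219 CPM. Ccl7 had 0 UMIs against 80.0 CPM.

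Of 13 growth and repair ligands, which act on other nerve cells, 10 were compared, all of which passed by the other cells alone. Of the 10, 1 was higher and 5 were lower, beside 3.64% and 23.2% of all such genes, and with thinned cells 1 was higher and 3 lower. The summed level of the list was 1720 CPM in the leukocytes and 1725 CPM in the other cells. The higher one was Thbs1, an adhesive matrix glycoprotein that activates TGF-beta, at 1486 CPM against 163. Against the highest of the 4 cell sets its log2 difference was 1.96, short of 4-fold, and no gene of the list was then higher. Igf1, Pdgfa and Pdgfb had 0 UMIs in the leukocytes, which puts Igf1 at least 22.7-fold lower and Pdgfa at least 17.7-fold lower. Vegfa, an angiogenic factor, stood at 97.0 CPM against 37.0 and Tgfb1 at 56.2 CPM against 83.7, each short of 4-fold.

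Ligands that draw or keep white cells were listed separately. Of the 10 that passed by the other cells alone, 1 was higher in the leukocytes and 4 were lower, beside 3.64% and 23.2% of all such genes. With thinned cells 1 was higher and 2 lower. Csf1, the macrophage growth factor, was the higher one at 454 CPM in 32 cells, against 46.8 in the other cells and 111 in those with Pdgfra. Cxcl12, the ligand of Cxcr4, had 0 UMIs in the leukocytes and 759 CPM in the cells with Pdgfra, while Cxcr4 itself stood at 413 CPM in 33 leukocytes. Cxcl5, a ligand of Cxcr2, stood at 10.2 CPM in the leukocytes and 578 in the cells with Pdgfra, and Cxcr2 stood at 1710 CPM in the leukocytes.

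Receptors for these signals were abundant. Of 21 cytokine, chemokine and chemoattractant receptors, 19 were compared, but only 3 passed by the other cells alone, 1 of them higher. Csf3r, the receptor of the granulocyte growth factor G-CSF, stood at 1802 CPM (1619 to 2000) and was found in 79 of 83 cells. Ccr1, the receptor of Ccl3 and Ccl6, stood at 1868 CPM, also in 79 cells, and C5ar1, the receptor of complement C5a, at 1021 CPM in 66 cells. Il1r2, a decoy receptor for interleukin-1, stood at 2542 CPM in 82 cells. The formyl peptide receptors Fpr1 and Fpr2 stood at 174 and 373 CPM. Ccr2, the receptor for Ccl2 on monocytes, had 2 UMIs and Cx3cr1 had none. Ifngr1 and Tnfrsf1a were less than 4-fold apart.

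The Fc and ITAM receptor list holds activating receptors, inhibitory ones and the adaptor Hcst. Its 17 genes summed to 11057 CPM in the leukocytes and 19.3 CPM in the other cells. Of its 14 compared genes, 13 passed only through the leukocytes with a call fixed as higher, so no count is drawn from them. Clec4d and Clec4e, C-type lectins for mycobacterial glycolipids that pair with Fcer1g, stood at 2062 and 1879 CPM, in 81 and 72 cells. Trem1, an amplifier of inflammatory signals that pairs with Tyrobp, stood at 934 CPM against 0.0568, which was 1 UMI in 1399 cells. Clec7a, the receptor for fungal beta-glucan, stood at 1572 CPM. Fcgr3 and Fcgr4, receptors for the constant part of IgG, stood at 475 and 276 CPM, while Fcgr1 and Trem2 of the macrophage lineage had 0 UMIs. Lilr4b and the inhibitory receptor Lilrb4a stood at 1572 and 863 CPM, but they are near copies of each other and counting could split their reads.

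Sensors of microbes and damage were detected at high levels too. Of 14 genes in this list, 6 passed by the other cells alone, and 5 of these were at least 4-fold higher. Cd14, the co-receptor for lipopolysaccharide, stood at 2997 CPM in 68 cells, Acod1, which makes itaconate, at 2711 CPM in 74 cells, and Tlr2 at 429 CPM in 41 cells. Nlrp3, the inflammasome sensor that leads to the processing of interleukin-1 beta, stood at 1189 CPM in 60 cells, against 2 UMIs in all 1399 other cells. Pycard and Casp1, the inflammasome adaptor and its protease, were less than 4-fold apart, at 10.2 and 30.6 CPM in the leukocytes and 30.8 and 11.0 CPM in the other cells. Ptgs2, the inducible cyclooxygenase, stood at 1981 CPM in 60 cells.

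**Figure D3:**
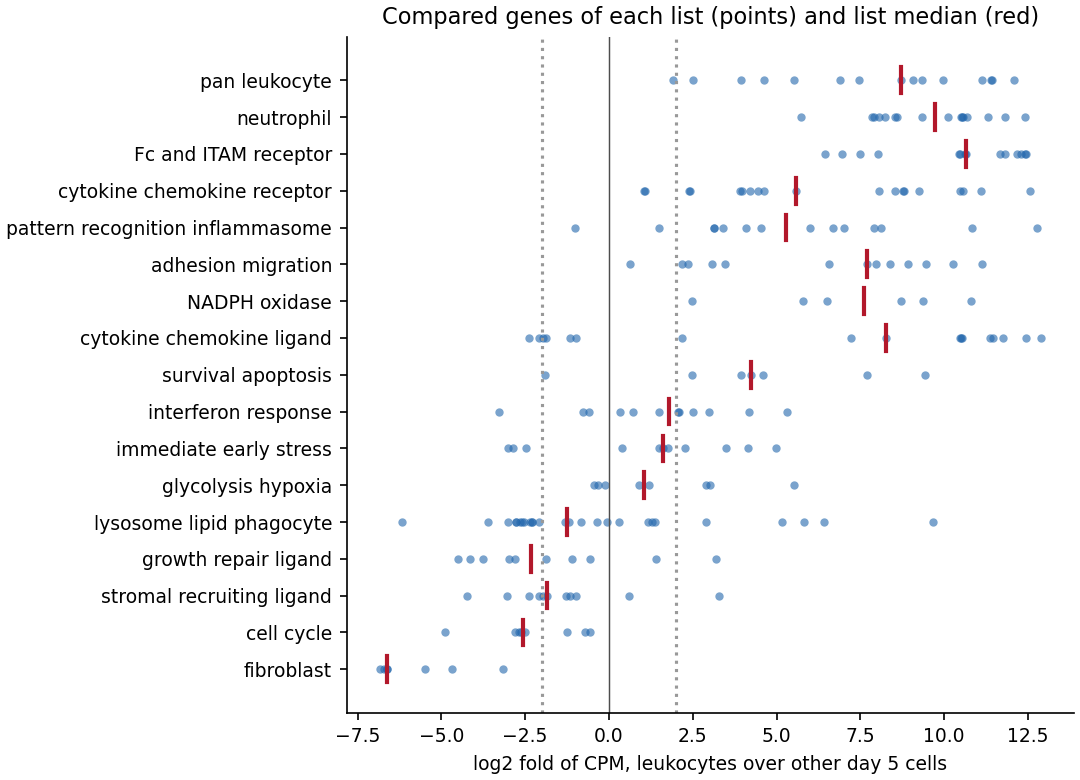
Log2 difference in CPM between the leukocytes and the other day 5 cells (horizontal axis) for each compared gene of 17 gene lists (rows, 1 point per gene), with the list median in red and dotted lines at 4-fold. All fibroblast genes lie beyond 4-fold lower. Genes at no more than 4 CPM in the other cells could be plotted only if they were at least 4-fold higher, as were 13 of the 14 Fc and ITAM receptor genes and 9 of the 16 neutrophil genes.

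Of the adhesion and migration genes, 5 passed by the other cells alone and 4 of these were higher. The integrin chains Itgal, Itgb2 and Itgam stood at 562, 378 and 357 CPM. Of the 6 NADPH oxidase genes, 1, Cyba, passed by the other cells alone, and it stood at 1001 CPM against 180, a 5.57-fold difference. Cybb, the catalytic subunit, had only 11 UMIs in 4 cells, 56.2 CPM.

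Of the 15 genes of the general white cell list, 5 passed by the other cells alone and 4 of these were at least 4-fold higher. Srgn, the core protein of granule proteoglycans, stood at 11741 CPM in all 83 cells. It was not exclusive to them, with 248 CPM in the cells with Cdh5. Lsp1, an actin-binding protein of leukocytes, stood at 1041 CPM in the leukocytes and 774 CPM in the cells with Pdgfra, a difference of under 4-fold. Spi1, which encodes the myeloid factor PU.1, stood at 776 CPM in 68 cells against 0.284.

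Of the transcription factors, in a list made after the cells had been seen, 11 passed by the other cells alone and 5 of these were at least 4-fold higher. Mxd1, a partner of Max that opposes Myc, was found in all 83 cells at 3553 CPM against 8.24, and Cebpb in 81 cells at 4120 CPM against 114. Cebpe and Gfi1, used by granulocyte precursors, had 1 and 0 UMIs. Of the 8 cell cycle genes, all compared, none was at least 4-fold higher and 5 were at least 4-fold lower, but with thinned cells 1 of 7 was lower. Mki67 had 2 UMIs, 10.2 CPM against 106, and Stmn1 2 UMIs, 10.2 CPM against 452. Cdk1 had none against 36.5 CPM.

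The list on cell survival and death mixes roles. Mcl1, Bcl2 and the Bcl2a1 genes oppose cell death, Bcl2l11 promotes it, and Btg1 and Btg2 restrain proliferation. Of the 5 that passed by the other cells alone, Mcl1, Bcl2l11, Btg1 and Btg2 were at least 4-fold higher and Bcl2 was not. Mcl1, on which neutrophil survival depends, stood at 3436 CPM against 184, Btg1 at 5406 against 351, and Bcl2a1b had 23 UMIs and 0 in the other cells. The Bcl2a1 genes are near-identical copies, so their split is uncertain. Bcl2 was lower at 15.3 against 57.8 CPM, under 4-fold.

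The immediate early and stress list was split, with 4 of 11 genes higher and 3 lower. All 11 passed by the other cells alone, where 3.64% of all genes were higher and 23.2% lower. With thinned cells 3 were higher and 1 lower. Junb stood at 3624 CPM against 323 and Dusp1 at 3446 against 109, while Jun stood at 107 against 787. Hspa1a and Hspa1b, heat shock genes often induced by tissue dissociation, had 1 and 0 UMIs, against 85.4 and 122 CPM in the other cells. Nfkbia, an inhibitor of NF-kB induced by it, stood at 5605 CPM against 331.

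Interferon-stimulated genes were likewise split, with 5 higher and 1 lower of the 11 that passed by the other cells alone. Against the highest of the 4 cell sets 3 of 12 were higher. Ifitm1 stood at 1822 CPM against 46.2. Isg15 stood at 776 CPM against 136, with a log2 difference of 1.95 from the highest of the 4 sets, under 4-fold, and was found in 41 of the 83 cells, and Rsad2 at 311 CPM in 21 cells, 16 of which also had Isg15. Bst2, which tethers viruses to the cell surface, was the lower one, at 40.8 CPM against 393.

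Genes of phagocytic lysosomes and lipid handling, which macrophages use to clear myelin, varied. Of the 22 that passed by the other cells alone, 1, Fth1, was higher and 12 were lower, beside 3.64% and 23.2% of all such genes. Over all 26 compared, 5 were higher and 12 lower, and with thinned cells 5 and 9. Fth1, the ferritin heavy chain, stood at 18546 CPM against 2476, and Lyz2, lysozyme, at 1057 CPM in 39 cells. Apoe, a lipid carrier, had 14 UMIs, 71.5 CPM against 364, and Cd63, a granule and late endosome protein, stood at 179 CPM against 1426. Fabp4, Lgals3, Lipa, Npc2 and Abca1 were also lower, and Cd36, Gpnmb, Axl and Mertk had 0 UMIs. Of the 10 genes of the macrophage state list, 6 had 0 UMIs, Mrc1, Chil3, Retnla and Nos2 among them. Its 3 compared genes, Il1b, Tnf and Cd80, passed the filter only through the leukocytes, and the list summed to 17015 CPM against 17.3, nearly all of it Il1b.

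Of the glycolysis and hypoxia list, 7 genes passed by the other cells alone, and 2 of these were at least 4-fold higher and none lower. The transporter Slc2a3 stood at 439 CPM against 9.54, Slc2a1 at 235 against 31.3, and Pfkfb3, which drives glycolysis, at 163 against 20.4. Hif1a and Ldha differed by less than 4-fold.

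Of the 10 genes furthest below the other cells, 5 encode proteins of the extracellular matrix. Sparc, a collagen-binding matrix protein, had 3 UMIs over 83 leukocytes, 15.3 CPM against 5251, a level 343-fold lower (95% interval 117 to 1663). Col1a1, Col3a1, Col1a2 and Dcn stood at 10.2 to 56.2 CPM against 1604 to 6434 in the other cells. Igfbp7, Igfbp5, Crip1, Dbi and Apod completed the 10. All 7 genes of the fibroblast list were lower, beside 23.2% of the genes that passed by the other cells alone. In the barcodes of 10 to 100 UMIs, S100a9 stood at 327 CPM and S100a8 at 232, far below the leukocytes.

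Among themselves the 83 cells were compared by the variance of each gene over its mean with every cell thinned to 1000 UMIs, which was 1.16 in the median of 1298 genes. It was highest for S100a9 (25.2), S100a8 (20.3), Fth1 (15.3), Cxcl2 (13.6) and Ccl4 (13.1), and Il1b, found in every cell, stood at 6.28. How far a gene's UMIs gathered in few cells was a different matter. For Il1b the 10 cells with the most held 25.2% of its UMIs. For S100a8 the top 10 cells held 30.5%, for Cxcl2 34.6%, for Thbs1 68.7%, for Cxcl3 85.3%, for Ccl3 85.7%, for Tnf 87.2%, for Ly6c2, a surface antigen of monocytes, 93.1% and for Ccl4 95.7%. Ccl4 was found in 16 cells, at up to 48 UMIs in a cell. A gene with few UMIs can be found in few cells only, and Ly6c2, Tnf and Ccl3 had 29, 47 and 49 UMIs in all. Retnlg and Cxcl2, with 652 and 3574 UMIs, were absent from 23 and 5 cells. Of the 17 cells with Ccl3, 6 had Ccl4 (35.3%) and 5 had Tnf (29.4%), where 19.3% of all 83 cells had each. Of the 16 cells with Ccl4, 2 had Tnf (12.5%, against 19.3% of all) and 1 had Cxcl3 (6.25%, against 25.3% of all). These are small counts and were not tested.

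S100a8 did not follow the cytokines. Across the 83 cells, on levels relative to the cell's UMIs, its Spearman correlation was -0.126 with Il1b, -0.0681 with Cxcl2, 0.374 with Retnlg and -0.389 with Nfkbia. The cells share 1 library, and a level that takes up to 30.3% of a cell's UMIs (S100a8 and S100a9 together) lowers every other level in that cell.

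**Figure D4:**
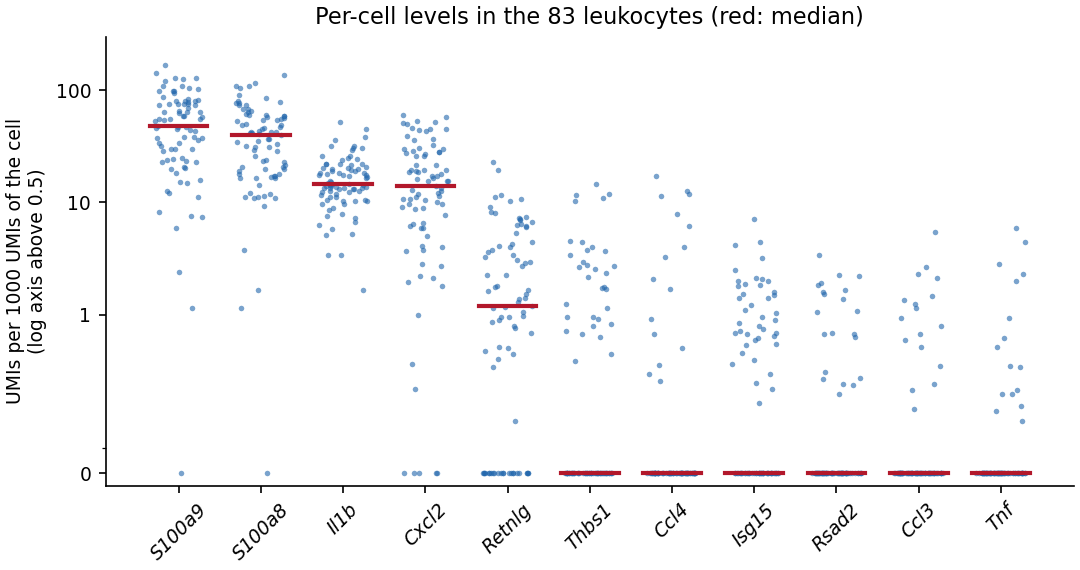
UMIs of 11 genes per 1000 UMIs of the cell (vertical axis, logarithmic above 0.5), with 1 point for each of the 83 leukocytes and the median in red. S100a9, S100a8, Il1b and Cxcl2 are present in 78 to 83 cells, while Ccl4, Ccl3 and Tnf are at 0 in 66 or 67 cells and high in a few.

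Leiden clustering of the leukocytes alone, without the 4 choosing genes, gave 2 sub-clusters of 35 and 48 cells at a resolution of 0.5. In each, 10% or more of the cells had a UMI of 15 of the 20 neutrophil markers, 4 of the 10 monocyte markers and 2 of the 16 macrophage markers, so both were neutrophil-like by the larger count. The sub-cluster of 35 cells was led by Tnf, Gbp5, Jun and Hilpda, and that of 48 cells by Ccl4, Tcf25, Plscr1 and mt-Co1, with Wfdc21, Ly6c2 and Retnlg among its 10 leading genes. These genes defined the clusters and are no result. The division was not stable. With another random seed, 2 sub-clusters of 30 and 53 cells were found that matched the first ones with an adjusted Rand index of 0.167, where 1 is identity and 0 chance, and a resolution of 0.25 gave 1 cluster. No sub-type was named.

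The same selection met 4 cells at month 2. Of the 4, 2 had 164 and 76 UMIs of the macrophage list and 80 and 157 of MHC class II genes, 1 had 199 MHC class II UMIs and 1 macrophage UMI, and 1 had none of either. S100a8, S100a9 and Il1b had 0 UMIs in all 4. The day 5 cells had at most 4 MHC class II UMIs each. Day and library cannot be told apart, since day 5 had 1 library.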

How the data were processed

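The authors deposited raw UMI counts per gene and barcode, which the submitters' processing notes link to kallisto 0.46.2, bustools 0.40.0 and the build GRCm38. Which annotation was used, and whether strand was, is not given in the sources used here. No normalization had been applied. Of 6 labelled libraries, 5 were analysed. Of 55421 gene identifiers, 55154 matched a symbol without their version, and coordinates are from GENCODE vM21.

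Cells had at least 1000 UMIs and under 10% mitochondrial UMIs, and doublets were scored but not removed. UMIs were summed over the leukocytes and over the other day 5 cells and scaled to CPM. Genes with a mean of both of at least 10 CPM were compared. A gene was called higher or lower at 4-fold, with counts under 3 set to 3. Intervals (95%) are exact Poisson for levels, Clopper-Pearson for shares and conditional on the sum of both counts for ratios, and all cover counting error only, the depth being 195890 UMIs in leukocytes and 17602052 in other cells. No p-value was computed, since day 5 had 1 library. For shares of cells, each cell was thinned to 1000 UMIs. Sub-clusters used 1000 variable genes, 10 components and 10 neighbours. The leukocyte rule and the gene lists were chosen with earlier results of these data known, and 4 lists (azurophil, specific and gelatinase granules, transcription factors) were added after the cells were seen. Named genes were those of the lists, the 15 furthest above and 10 furthest below the other cells at 100 CPM or more, and the 10 leading genes of each sub-cluster at 200 CPM or more. The comparison was tested on simulated counts with known folds. Promoters are RefSeq, GRCm38.p6. Sub-clusters and doublet scores came from scanpy 1.11.5 with igraph 0.11.9, intervals from scipy 1.17.1 and figures from matplotlib 3.10.9, under Python 3.11.15. Some genes have no value of their own reported here but are part of their list counts.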

Additional observations from a re-analysis of the deposited data

Results flagged for a closer look

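Barcodes below the minimum depth also met the marker rule at day 5. Of the 59 day 5 barcodes with 500 to under 1000 UMIs, 7 did, with 197 UMIs of the neutrophil list in all, and of the 98 with 200 to under 500 UMIs, 3 did, with 65. In the sham month 2 libraries the counts were 0 of 1550 and 0 of 4853 barcodes, and in the PSNL month 2 libraries 1 barcode of 500 to under 1000 UMIs met it. These barcodes were left out of every comparison, and whether they were intact cells was not tested.

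A further 2 day 5 barcodes were rich in neutrophil transcripts but carried an excluded gene, where 0 barcodes of the sham month 2 libraries met the immune minimum and were excluded. The first had 2509 UMIs, of which 818 were of the neutrophil list and 1 of Notch3. The second had 26571 UMIs, with 420 of the neutrophil list, 889 of the fibroblast list and 3 of Pdgfra. Scrublet called neither of them a doublet.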

How the results depend on the processing

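No paired analysis was possible because day 5 had 1 library and no test was made. The number of leukocytes stayed between 57 and 95 in all 10 alternatives to the selection, against 83, with the lowest at a minimum of 2000 UMIs and the highest without the excluded genes. The numbers of genes higher (1095) and lower (1662) depended on the fold and the filter. They were 1754 and 3734 at 2-fold and 716 and 582 at 8-fold. Without a filter 16820 were higher, 14022 of them genes at 0 UMIs in the leukocytes whose counts were raised to 3, and with a mean of at least 50 CPM 576 were. With 1 CPM added in place of the floor 3635 were lower, and against the highest of the 4 cell sets 2865 were. In an alternative chosen after seeing the data, with every cell thinned to 1000 UMIs, 685 were lower and 1305 higher, 65.6% of the calls against 39.7%; thinning leaves fewer counts, so the floor of 3 counts lies higher. Scaling without mitochondrial, ribosomal protein and the 20 most abundant genes moved the median log2 difference of the compared genes from -0.70 to -0.52, adding 1 CPM to -1.37, and thinning to 0.20, so its sign was not stable. The fold thresholds and filters cannot change a gene's fold. Under the other 8 alternatives (408 values of 51 named genes), none past 4-fold changed sign, 274 stayed within their counting interval and 134 moved outside it. The sub-clusters numbered 1 at a resolution of 0.25, 6 at 1, and 3 with 2000 variable genes or at 10 immune UMIs, and 2 in the other alternatives. With 5.10 CPM per UMI, levels under 15.3 CPM in the leukocytes cannot be told from 0.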
